A study of Mus musculus with 53 samples.

Results

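The sciatic nerve of mice kept on a high-fat diet was compared between 16 and 24 weeks of age. The comparison used the 14 of 53 samples that carry the HFD label with neither streptozotocin (STZ) nor dietary reversal (DR), 7 taken at 16 weeks (HFD16) and 7 at 24 weeks (HFD24). The samples were taken by these labels, and no measured value was used to choose them. The question was which transcripts of the nerve changed over 8 further weeks on the same diet.

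Myelinating Schwann cells wrap the axons of the sciatic nerve in a membrane rich in cholesterol and galactolipids. They make most of this cholesterol themselves, starting from acetyl-CoA and passing through mevalonate, squalene and lanosterol. The genes of this pathway share a transcription factor, SREBP2, which is held back by sterols and released when sterols run low. The pathway is known to be most active while myelin is being laid down, and to be lower in the mature nerve.

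All mice were male C57BL/6J animals. HFD mice ate a diet with 60% of its energy from fat from 5 weeks of age on and served as the prediabetic model. Standard diet (SD) mice of the same ages had 5 samples at 16 weeks and 8 at 24 weeks. HFD-STZ mice, the model of type 2 diabetes, ate the high-fat diet and received STZ at 12 weeks of age in doses of 75 and 50 mg/kg, with 5 samples at 16 weeks and 8 at 24 weeks. The labels do not say that each sample is a separate animal, and p-values measure the spread between these samples, which may be technical in part. Age and the time at which nerves were collected cannot be told apart in this design. The library number of HFD16 replicate 7 holds the place in its run that HFD-STZ16 samples hold in the other runs with 16-week samples. Its label was used as given, and 2 genes were called without it, with 22 of 22 cholesterol genes still lower at 24 weeks.

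RNA was sequenced from whole nerve, and the deposited values are log2 expression values, 1 for each of 49568 gene symbols and sample. The reads behind each value are unknown, so no counting error can be given and the spread between samples takes its place. Correlations between the 14 samples ran from 0.969 to 0.993, and 0 pairs were identical. The nerve origin was plain in the values, with the myelin gene Mbp (myelin basic protein) never below 19.43 in any of the 14 samples. The mean log2 value of 20 skeletal muscle genes, of which 19 were tested, was 13.22 in HFD24 replicate 1, 10.01 in HFD24 replicate 2 and 10.48 in HFD16 replicate 6, and 6.56 to 9.52 in the other 11 samples.

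Few genes passed the test between the ages, and those that did were all decreases. Of 18374 genes whose mean over the 14 samples corresponded to a linear value of 10 or more, 12 fell between 16 and 24 weeks (limma with Benjamini-Hochberg adjustment, adjusted p under 0.05), which is 0.0653% of the genes tested. The number that rose was 0, and 591 genes were lower and 492 higher at an unadjusted p under 0.05, which is 3.22% and 2.68%. Named in order of p, 11 of the 12 genes were Cyp2j13, Aacs, Lss, Scn3b, D430019H16Rik, Ugt8a, Mvd, Cyp51, Hmgcs1, Sc5d and Stard4. For each of the 12, all 7 HFD24 samples lay below all 7 HFD16 samples, a pattern seen in 0.196% of the genes tested in this direction. The exact 2-sided permutation p was 0.000583 for each, the smallest that the 3432 splits of 7 against 7 samples allow. Groups without overlap always give this value, so it is no second test. It is also not adjusted for the 18374 genes from which the 12 were taken.

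The number of genes past the threshold depended on single samples. Of the HFD24 samples, 3 genes were called without replicate 1, 5 without replicate 3, 5 without replicate 4, 3 without replicate 6 and 0 without replicate 7. Of the HFD16 samples, 5 were called without replicate 2, 3 without replicate 3, 1 without replicate 5, 0 without replicate 6 and 2 without replicate 7. Without the 3 samples with a muscle score above 10, 1 gene was called. All 12 genes had a lower mean at 24 weeks in each of these fits, as their lack of overlap makes certain.

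**Figure D1:**
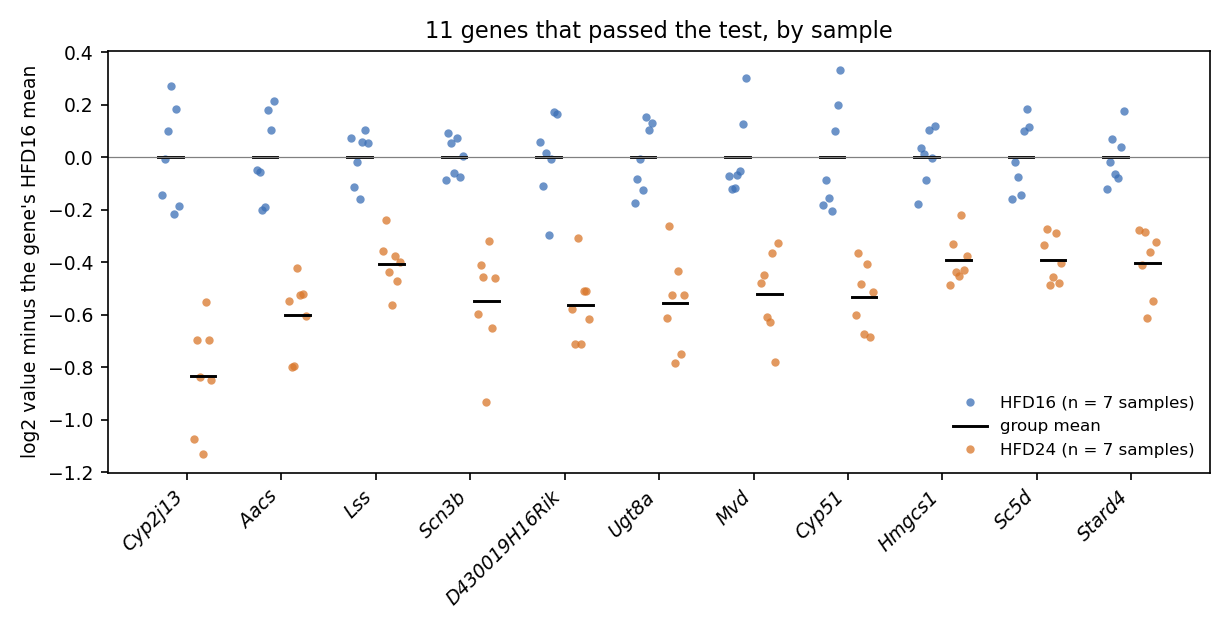
Each point is 1 nerve sample, drawn as its log2 value minus the mean of the 7 HFD16 samples for that gene; blue is HFD16, orange is HFD24, and the black bars are group means. The plot shows 11 of the 12 genes, and in each the 7 HFD24 samples lie below the 7 HFD16 samples, with mean differences from -0.83 (Cyp2j13) to -0.39 (Sc5d).

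Genes of cholesterol synthesis made up 6 of the 12 decreases. Of 22 genes for the synthesis, uptake and regulation of cholesterol, all 22 had a lower mean at 24 weeks, as had 44.4% of all genes tested, and 21 were lower at an unadjusted p under 0.05, against 3.22% of all genes. Of these, 6 fell past the adjusted threshold, among them Hmgcs1, Mvd, Lss, Cyp51 and Sc5d. The median difference of the 22 was -0.40 on the log2 scale, against 0.02 over all genes tested. In 11 of the 22 the ages did not overlap, against 0.196% of all genes in this direction.

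The first committed steps make mevalonate. Hmgcs1 (chr13:119690379-119708260, plus strand, mm10), the synthase that joins acetyl units into HMG-CoA, had log2 values of 15.53 to 15.83 with a median of 15.72 in HFD16, and of 15.22 to 15.49 with a median of 15.28 in HFD24. It fell by 0.39 ± 0.07 (SE, 7 against 7 samples; limma with Benjamini-Hochberg adjustment, adjusted p = 0.0442). The highest HFD24 sample was just below the lowest HFD16 sample.

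Acat2, which joins acetyl-CoA before HMG-CoA synthase, had a difference of -0.37 (adjusted p = 0.0866, limma) with ages that overlapped. The kinases Mvk and Pmvk, which phosphorylate mevalonate, had smaller differences of -0.20 and -0.29 and did not pass. Mvd (chr8:122433601-122443422, minus strand), the decarboxylase that yields isopentenyl diphosphate, ran from 10.09 to 10.51 with a median of 10.14 in HFD16 and from 9.43 to 9.88 with a median of 9.73 in HFD24. It fell by 0.52 ± 0.09 (limma, adjusted p = 0.0426). Its lowest HFD16 value was 10.09, above every HFD24 value.

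Of the isoprenoid steps towards squalene, Idi1 and Fdft1 came close to the threshold and Fdps did not. Idi1, the isomerase of isopentenyl diphosphate, had a difference of -0.54 ± 0.09, and Fdft1, squalene synthase, of -0.50 ± 0.09. Their adjusted p-values were 0.0526 and 0.0782 (limma), and for both genes the ages did not overlap. Fdps, farnesyl diphosphate synthase, had -0.39 ± 0.16 with overlapping ages and an adjusted p of 0.809 (limma).

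After squalene, Sqle (squalene epoxidase) had a difference of -0.53 ± 0.10 with an adjusted p of 0.0927 (limma), and Lss closes the ring to lanosterol. Lss (chr10:76531588-76557138, plus strand) ran from 11.50 to 11.76 with a median of 11.71 in HFD16 and from 11.09 to 11.42 with a median of 11.26 in HFD24. It fell by 0.41 ± 0.06, and both groups had an SD of 0.10 (limma, adjusted p = 0.0220). Here the ages were separate and the spread was equally narrow.

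The enzymes that turn lanosterol into cholesterol were lower too. Cyp51 (chr5:4081145-4104746, minus strand), the lanosterol demethylase, ran from 13.00 to 13.54 with a median of 13.12 in HFD16 and from 12.52 to 12.84 with a median of 12.69 in HFD24, and fell by 0.53 ± 0.09 (limma, adjusted p = 0.0426). Sc5d (chr9:42251595-42264256, minus strand), the sterol desaturase near the end of the pathway, ran from 14.09 to 14.43 with a median of 14.23 in HFD16 and from 13.76 to 13.98 with a median of 13.84 in HFD24, and fell by 0.39 ± 0.07 (limma, adjusted p = 0.0442). Neither gene had a value shared between the ages.

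Of the other enzymes of this stretch, Hsd17b7 and Dhcr7 had differences of -0.44 and -0.36 with no overlap between the ages. The ages nearly touched in both. The highest HFD24 and lowest HFD16 values were 12.4454 and 12.4561 for Hsd17b7, and 10.8201 and 10.8205 for Dhcr7. Msmo1, Tm7sf2 and Nsdhl had -0.50, -0.44 and -0.30. None of these passed the adjusted threshold.

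Srebf2 and Insig1, which control the pathway, did not pass. Srebf2, the gene of SREBP2, had a difference of -0.22 ± 0.08 with an adjusted p of 0.793 (limma). Insig1, which keeps SREBP2 in the endoplasmic reticulum and is itself an SREBP target, was the 1 member of the 22 without a low p, with -0.07 ± 0.09 and an unadjusted p of 0.477. Its values overlapped almost fully, from 12.17 to 12.60 in HFD16 and from 12.13 to 12.56 in HFD24.

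Some exonic bases of these genes lie in other annotated genes. The paper describes the libraries as non-stranded, while the sample labels name a different library kit. The share of such bases was 12.1% for Hmgcs1, 3.53% for Lss and 3.76% for Cyp51, all on the opposite strand, and 0 for the other 9 called genes. Among the members that did not pass, it reached 26.7% for Fdps and 18.3% for Fdft1, so their values are less certain.

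The regulatory sequence of 3 of the called enzymes is shown because the pathway's genes are known to be driven from short elements close to their start sites. Upstream windows of 250 bases were available from RefSeq (GRCm38.p6) for 16 of the 22 cholesterol genes and for 9 of the 12 called genes, with no entry for Stard4 or Scn3b, among others. Each window is printed from 5′ to 3′ on the strand of the gene and ends at the base before the RefSeq start. For Hmgcs1 and Lss this start differs from that of the gene coordinates given above, which are from GENCODE. Capitals mark the sterol element TCACNCCAC and the letters CCAAT, each searched on both strands, so that CCAAT on the other strand reads ATTGG. The windows are chr13:119690101-119690350 (plus strand) for Hmgcs1, chr8:122443423-122443672 (minus strand) for Mvd and chr10:76531355-76531604 (plus strand) for Lss.
Hmgcs1: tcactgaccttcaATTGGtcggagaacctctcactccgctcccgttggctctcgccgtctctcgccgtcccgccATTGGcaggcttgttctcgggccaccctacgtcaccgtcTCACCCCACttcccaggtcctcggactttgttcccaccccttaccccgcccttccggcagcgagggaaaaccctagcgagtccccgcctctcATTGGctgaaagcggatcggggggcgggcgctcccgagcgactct
Mvd: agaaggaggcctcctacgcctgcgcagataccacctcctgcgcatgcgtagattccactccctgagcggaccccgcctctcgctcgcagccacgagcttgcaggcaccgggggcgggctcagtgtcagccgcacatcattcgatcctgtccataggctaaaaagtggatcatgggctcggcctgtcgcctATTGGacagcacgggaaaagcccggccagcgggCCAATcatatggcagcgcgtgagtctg
Lss: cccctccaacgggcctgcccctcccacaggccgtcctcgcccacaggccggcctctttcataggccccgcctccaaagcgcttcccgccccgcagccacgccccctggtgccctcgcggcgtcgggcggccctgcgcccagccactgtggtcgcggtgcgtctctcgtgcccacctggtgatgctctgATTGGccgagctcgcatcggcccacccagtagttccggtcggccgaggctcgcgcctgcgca

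The sterol element lay at -137 in the Hmgcs1 window, counted from its first base to the RefSeq start site. It was found in 1 of the 16 cholesterol genes and in 1.05% of the 32851 windows of all genes. CCAAT occurred 3 times in the Hmgcs1 window, 2 times in that of Mvd and 1 time in that of Lss. It was present in 15 of the 16 genes, or in 78.9% of their 19 windows, against 33.8% of all windows, and GGGCGG, the letters bound by Sp1, in 84.2% against 32.7%. CCAAT and GGGCGG were looked at after the data had been seen. The E-box CACGTG was in 21.1% against 6.02%, AGGTCA in 5 of the 19 windows against 4607 of all 32851, TTANGTAA in 0 against 2.06% and CC and GG with any 6 letters between them in 84.2% against 67.1%. These are matches of letters in a short window, and no binding was measured.

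Of the other 6 genes that fell, 3 also serve lipid synthesis or transport. Aacs (chr5:125475814-125517410, plus strand), the cytosolic synthetase that activates the ketone body acetoacetate for lipid synthesis, ran from 12.18 to 12.60 with a median of 12.33 in HFD16 and from 11.58 to 11.96 with a median of 11.84 in HFD24. It fell by 0.60 ± 0.08 (limma, adjusted p = 0.0165). Stard4, a soluble carrier of cholesterol between membranes, ran from 10.21 to 10.51 with a median of 10.32 in HFD16 and from 9.72 to 10.06 with a median of 9.97 in HFD24. It fell by 0.40 ± 0.07 (limma, adjusted p = 0.0464), the weakest call of the 12, and it was called in 0 of the 14 fits that left out 1 sample.

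Ugt8a (chr3:125865271-125938619, minus strand) makes galactosylceramide, the main galactolipid of myelin. Its log2 values ran from 15.50 to 15.82 with a median of 15.66 in HFD16 and from 14.89 to 15.41 with a median of 15.14 in HFD24. It fell by 0.56 ± 0.09 (limma, adjusted p = 0.0288), and on the linear scale it fell by 31.9%. Every HFD16 sample was above every HFD24 sample.

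The remaining genes that fell were Cyp2j13, Scn3b and D430019H16Rik. Cyp2j13 (chr4:96027534-96077546, minus strand), a cytochrome P450 of the Cyp2j family, had the largest difference of the 12, with values of 8.66 to 9.15 and a median of 8.87 in HFD16 and of 7.74 to 8.32 and a median of 8.04 in HFD24. It fell by 0.83 ± 0.11 (limma, adjusted p = 0.0165), on the linear scale it fell by 43.9%, and it passed in 12 of the 14 fits that left out 1 sample.

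Scn3b (chr9:40269217-40291618, plus strand), an auxiliary beta subunit of voltage-gated sodium channels, ran from 10.83 to 11.004 with a median of 10.92 in HFD16 and from 9.98 to 10.59 with a median of 10.45 in HFD24. It fell by 0.55 ± 0.08 (limma, adjusted p = 0.0220), and the SD was 0.07 at 16 weeks and 0.20 at 24 weeks. D430019H16Rik (chr12:105453856-105493095, plus strand), a protein-coding gene known by its clone name, ran from 9.58 to 10.05 with a median of 9.89 in HFD16 and from 9.16 to 9.57 with a median of 9.30 in HFD24. It fell by 0.56 ± 0.09 (limma, adjusted p = 0.0220), and its lowest HFD16 value was just above its highest HFD24 value.

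The same 8 weeks were then followed in SD and HFD-STZ mice, whose samples are not shared with the HFD comparison. With limma, 0 of 17796 genes passed in SD mice, with 1862 at an unadjusted p under 0.05, and 0 of 17966 in HFD-STZ mice, with 2251. The cholesterol genes nevertheless had lower means in both. In SD mice 22 of 22 were lower, beside 47.1% of all genes, 19 of them at an unadjusted p under 0.05 (5.03% of all genes), with a median of -0.46. In HFD-STZ mice 20 of 22 were lower, beside 49.5% of all genes, 12 of them at an unadjusted p under 0.05 (6.68% of all genes), with a median of -0.35, and Mvk and Pmvk had differences of 0.02 each.

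Of single genes, Lss had a difference of -0.47 ± 0.13 in SD mice and -0.50 ± 0.12 in HFD-STZ mice, beside -0.41 ± 0.06 in HFD mice. Ugt8a had -0.60 ± 0.10 and -0.66 ± 0.15, beside -0.56 ± 0.09. D430019H16Rik had -0.28 ± 0.18 and -0.32 ± 0.21, beside -0.56 ± 0.09.

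**Figure D2:**
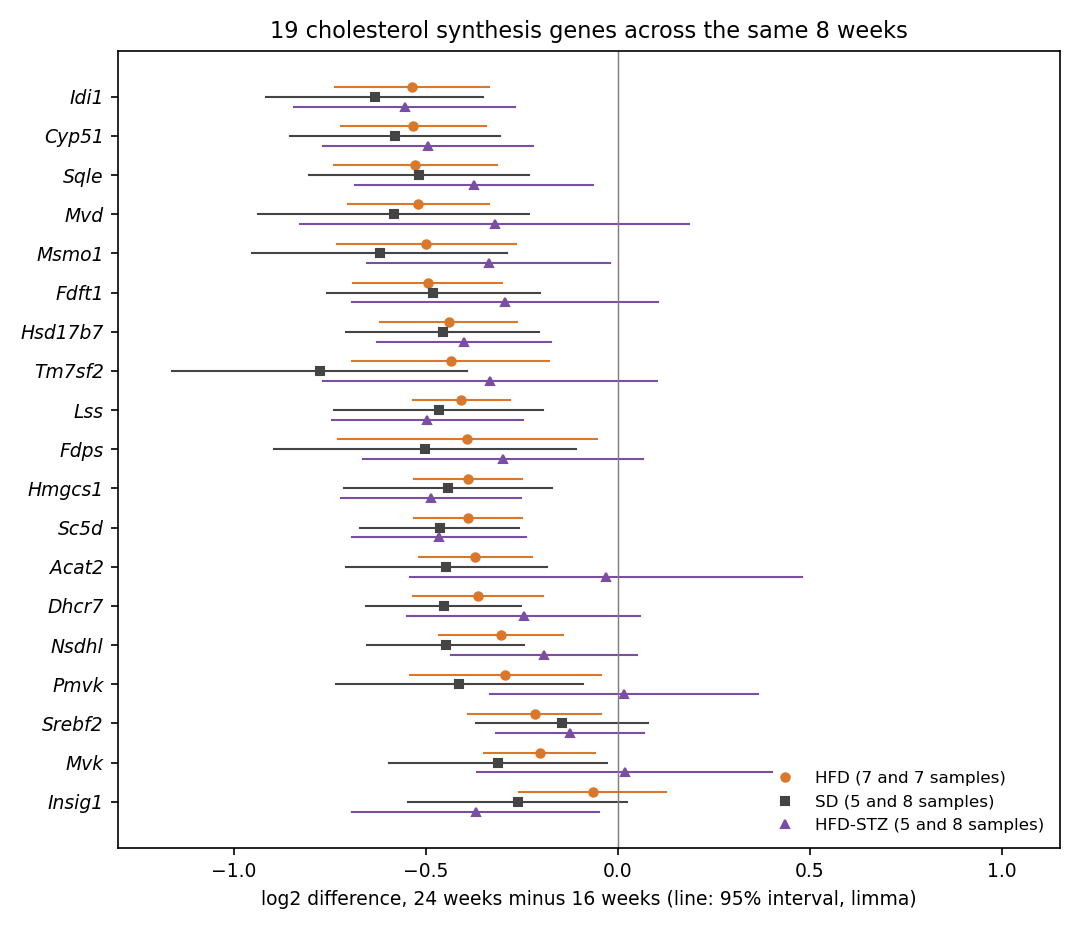
Log2 difference between 24 and 16 weeks for 19 of the 22 cholesterol genes, ordered by the value in HFD mice (orange circles), with SD mice as black squares and HFD-STZ mice as purple triangles; lines are 95% intervals of limma and the grey line marks 0. All 19 values lie below 0 in HFD and in SD mice, and 17 of 19 in HFD-STZ mice.

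Whether the change with age differed between HFD mice and either SD or HFD-STZ mice was tested directly with an interaction term. The age difference in HFD mice minus that in SD mice passed for 0 of 18091 genes, with 302 at an unadjusted p under 0.05 (limma), which is 1.67%. Against HFD-STZ mice it passed for 0 of 18159 genes, with 596 at an unadjusted p under 0.05, which is 3.28%. Of the 22 cholesterol genes, 0 had an unadjusted p under 0.05 in either test. For Lss the difference was 0.06 with a 95% interval of -0.22 to 0.34 against SD mice, and 0.09 with an interval of -0.17 to 0.35 against HFD-STZ mice. These tests do not show that the age difference was the same in the 3 models.

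Across all 8 groups, the mean log2 value of Lss was 11.89 in SD16, 11.72 in HFD-STZ16 and 11.66 in HFD16, and these neighbours overlapped in their samples. At 24 weeks it was 11.51 in HFD-STZ-DR24, 11.42 in SD24, 11.30 in HFD-DR24, 11.25 in HFD24 and 11.23 in HFD-STZ24, again with overlap between neighbours. The mean of the 22 genes was 12.36 to 12.84 in SD16, 12.16 to 12.50 in HFD-STZ16 and 12.22 to 12.59 in HFD16, against 11.71 to 12.32 in SD24, 11.62 to 12.38 in HFD-STZ24 and 11.75 to 12.05 in HFD24. It was 11.80 to 12.10 in HFD-DR24 and 11.87 to 12.38 in HFD-STZ-DR24, the mice switched back to control food for their final 8 weeks.

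The libraries carry numbers that fall into 8 runs of consecutive or nearly consecutive values, whose meaning the labels do not give, and 5 of these runs hold HFD samples of both ages. Within each of the 5 runs all 12 genes that fell were lower at 24 weeks. This follows from their lack of overlap and is no further support. Fdps, whose ages overlapped, was higher in 3 of the 5 runs. For Lss the difference ran from -0.62 to -0.22 over the runs, and for the mean of the 22 cholesterol genes from -0.79 to -0.22. With the run as a covariate, 21 of the 22 had a lower mean and 20 an unadjusted p under 0.05, but 0 genes passed the adjusted threshold (limma), with 1086 at an unadjusted p under 0.05.

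**Figure D3:**
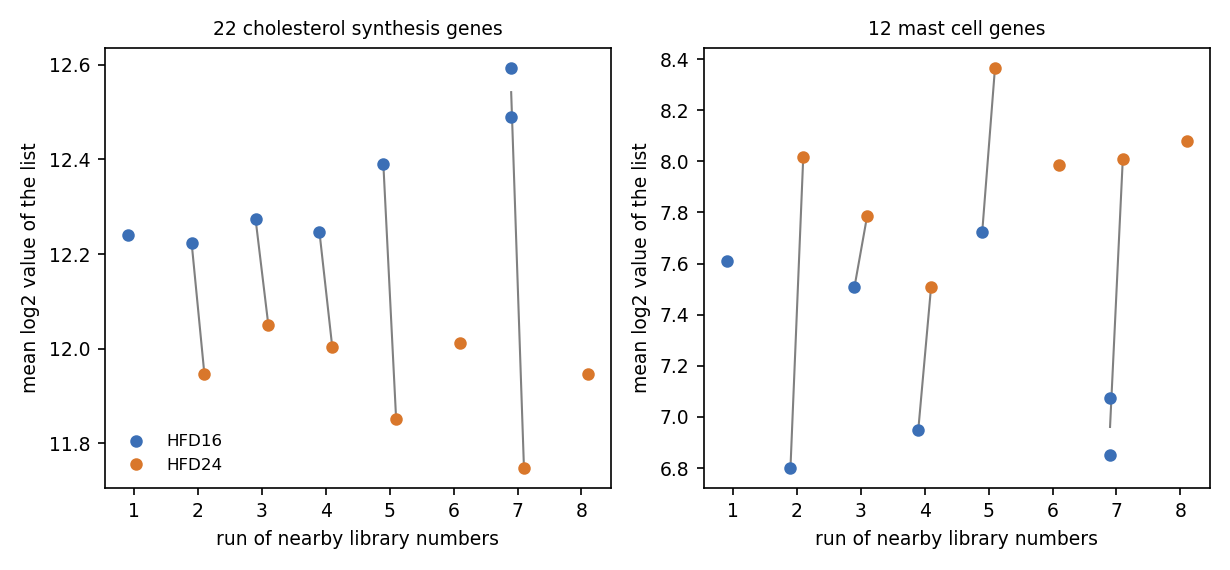
Mean log2 value of the 22 cholesterol genes (left) and the 12 mast cell genes (right) in each sample, placed by the run of nearby library numbers; blue is HFD16, orange is HFD24, and grey lines join the mean of each age within the 5 runs that hold both. The cholesterol mean is lower and the mast cell mean higher at 24 weeks in each of these 5 runs.

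Most genes of myelin and of Schwann cells had lower means at 24 weeks, with smaller median differences than the cholesterol genes. Of 17 myelin genes, 16 had a lower mean at 24 weeks (44.4% of all genes), 8 were lower at an unadjusted p under 0.05 (3.22% of all genes) and 1 fell past the threshold, namely Ugt8a. The median was -0.24, and the mean of the list ran from 15.25 to 15.54 in HFD16 and from 14.89 to 15.38 in HFD24. In RNA from whole nerve, fewer cells of a type and less RNA per cell cannot be told apart.

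Of the myelin genes, Pmp22, the myelin protein whose dosage underlies Charcot-Marie-Tooth disease, had -0.43 ± 0.16 and Mbp -0.16 ± 0.16, both with overlapping ages. Mpzl2 was the exception in sign, with 0.19 ± 0.31.

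Of 16 genes of Schwann cell identity, 15 had a lower mean (44.4% of all genes), 3 were lower at an unadjusted p under 0.05 (3.22%) and 0 passed (limma), with a median of -0.17. Sox10, the transcription factor of the lineage, had a difference of -0.18 ± 0.10, and Scn7a, a sodium channel gene of non-myelinating Schwann cells, of -0.18 ± 0.12. The mean of this list ran from 12.07 to 12.44 in HFD16 and from 11.73 to 12.34 in HFD24. With it as a covariate, chosen after the data were seen, 22 of 22 cholesterol genes were lower, 18 at an unadjusted p under 0.05, with a median of -0.35, and 14 genes were called, 8 of them among the 12.

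Some enzymes of sphingolipid and fatty acid synthesis had lower means as well. Of 20 sphingolipid genes, 12 had a lower and 8 a higher mean, 7 were lower at an unadjusted p under 0.05 (3.22% of all genes) and 0 higher, with a median of -0.08. Beside Ugt8a, these included the 2-hydroxylase Fa2h with -0.41 ± 0.11, the ceramide synthases Cers4 with -0.30 ± 0.06 and Cers2 with -0.24 ± 0.08, and Sptlc2, a subunit of the enzyme of the first step, with -0.26 ± 0.07. For Cers4 the ages did not overlap and the adjusted p was 0.122 (limma).

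Of 15 genes of fatty acid synthesis, 10 had a lower mean, 6 were lower at an unadjusted p under 0.05 (3.22% of all genes), 0 were higher and 0 passed (limma), with a median of -0.15. The elongases Elovl6 and Elovl7 had differences of -0.53 ± 0.11 and -0.38 ± 0.09, and the desaturases Fads2 and Scd2 of -0.37 ± 0.10 and -0.25 ± 0.10. Fasn, fatty acid synthase, had -0.15 ± 0.13, and Scd1, a desaturase shared with adipocytes, 0.38 ± 0.43. Elovl6 was separate between the ages, from 13.17 to 13.67 in HFD16 and from 12.38 to 13.15 in HFD24, with an adjusted p of 0.128.

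Mast cell genes stood highest among the lists in the opposite direction. Mast cells store histamine and proteases in granules and sit along the vessels and in the sheath of the nerve. Of 12 mast cell genes, 11 had a higher mean at 24 weeks, as had 55.6% of all genes tested, and 8 were higher at an unadjusted p under 0.05, against 2.68% of all genes. The median difference was 0.86, but 0 passed the adjusted threshold (limma). The mean of the list ran from 6.80 to 7.72 in HFD16 and from 7.51 to 8.37 in HFD24, so that the ages overlapped.

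The largest differences of the list were those of 4 granule proteases. Cma1, mast cell chymase, ran from 7.29 to 9.04 with a median of 8.07 in HFD16 and from 8.72 to 10.41 with a median of 9.60 in HFD24. Its difference was 1.36 ± 0.29 with an adjusted p of 0.161 (limma). Tpsb2, a tryptase, Cpa3, mast cell carboxypeptidase, and Mcpt4, another chymase, had differences of 1.25 ± 0.31, 1.24 ± 0.31 and 1.16 ± 0.28, each with ages that overlapped.

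The receptor genes were also higher. Fcer1a, the alpha chain of the IgE receptor, had the smallest p of all genes with a higher mean, and was among the 0.0272% of genes whose 24-week samples all lay above the 16-week samples. It ran from 4.58 to 5.48 with a median of 5.15 in HFD16 and from 5.56 to 6.59 with a median of 5.87 in HFD24. Its difference was 0.96 ± 0.19 with an adjusted p of 0.128 (limma). Ms4a2, the beta chain of the same receptor, and Mrgprb1, a receptor for basic secretagogues, had 0.77 ± 0.18 and 1.14 ± 0.29.

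The other members had smaller differences. Kit had 0.28 ± 0.21, Slc18a2 0.01 ± 0.10 and Gata2 -0.05 ± 0.09. Hdc, which makes histamine, had 0.49 ± 0.20 and Tpsab1 0.40 ± 0.23. In each of the 5 runs of library numbers with both ages the list mean was higher at 24 weeks, by 0.28 to 1.22.

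**Figure D4:**
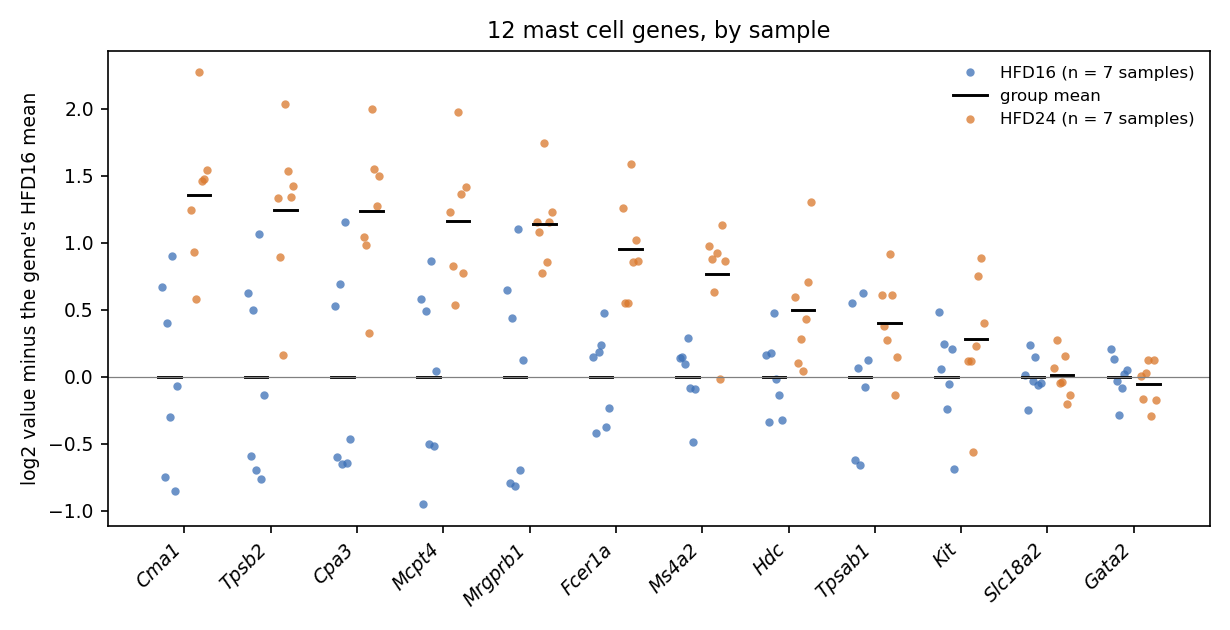
Log2 value of 12 mast cell genes in each sample minus the HFD16 mean of that gene, ordered by the difference between the ages; blue is HFD16, orange is HFD24, and black bars are group means. Means are higher at 24 weeks by 0.77 or more in the first 7 genes, while Slc18a2 and Gata2 lie near 0.

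In SD mice 11 of 12 mast cell genes were higher at 24 weeks, beside 52.9% of all genes, 6 of them at an unadjusted p under 0.05 (5.43% of all genes), with a median of 0.92. In HFD-STZ mice 9 of 12 were higher, beside 50.5% of all genes, 1 of them at an unadjusted p under 0.05 (5.84% of all genes), with a median of 0.23. The interaction with STZ had an unadjusted p under 0.05 for 3 of the 12 (3.28% of all genes), with a smallest adjusted p of 0.876 (limma), and that with SD for 0. The 3 did not share a sign, with 1.09 for Fcer1a, 0.98 for Ms4a2 and -0.30 for Gata2.

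Beside Fcer1a and Cma1, the smallest p-values among genes with a higher mean belonged to Tmem132b, Arl14epl and Tpsg1. Tpsg1, a tryptase gene that was on no list here, ran from 2.75 to 3.88 with a median of 3.08 in HFD16 and from 3.82 to 4.36 with a median of 3.94 in HFD24. Tmem132b, a membrane protein gene, ran from 3.52 to 6.02 and from 5.56 to 7.33, and Arl14epl from 2.27 to 3.72 and from 3.73 to 4.39. The difference of Tmem132b was 1.77 ± 0.37 with an adjusted p of 0.156 (limma). Tpsg1 and Arl14epl had HFD16 means of 3.17 and 2.98, below the minimum set for testing, and HFD24 means of 4.06 and 3.99. They were tested only because of their 24-week values, so their place here is no support for a difference.

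Macrophage genes had higher means with a wide spread between samples. All 16 genes of resident macrophages had a higher mean at 24 weeks (55.6% of all genes), 3 were higher at an unadjusted p under 0.05 (2.68% of all genes) and 0 passed (limma), with a median of 0.48. Csf1r, the receptor that keeps macrophages alive, had 0.46 ± 0.25, and C1qb, a complement subunit they secrete, 0.51 ± 0.24. The mean of the list ran from 9.37 to 10.28 in HFD16 and from 9.41 to 11.44 in HFD24. Of 16 genes of lipid-associated macrophages, 13 were higher, 2 of them at an unadjusted p under 0.05, and 1 was lower at that p, with 0.71 ± 0.24 for the receptor Trem2 and 1.87 ± 0.70 for the protease Mmp12.

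Lipid storage and a list of genes drawn from the study showed no change past the test. Of 14 adipocyte genes, 12 were higher, 0 of them at an unadjusted p under 0.05, with a median of 0.17 beside 1.69 in SD mice and 1.32 in HFD-STZ mice. Fabp4 and Cfd, both abundant in adipocytes, had 0.19 ± 0.46 and -0.56 ± 0.43. The mean of the list ran from 10.37 to 12.45 in HFD16 and from 10.03 to 12.63 in HFD24, a spread within each age far above the difference between them.

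The list drawn from the study holds 14 genes and is not the full set that the study followed. Of these, 13 had a higher mean at 24 weeks (55.6% of all genes). At an unadjusted p under 0.05, 0 were higher (2.68% of all genes) and 0 lower, and the median was 0.79. Tph2, which makes serotonin in neurons, ran from 2.95 to 9.96 in HFD16 and from 7.67 to 10.59 in HFD24, with a difference of 1.95 ± 0.97. Dgat2, the last enzyme of triglyceride synthesis, ran from 12.40 to 14.47 and from 12.04 to 14.91, with 0.45 ± 0.48. Lpl (lipoprotein lipase) and Cd36 (a fatty acid translocase) had 0.31 ± 0.53 and 0.43 ± 0.48. Their samples overlapped over most of the range.

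Genes that follow the time of day and the handling of tissue had list medians from -0.12 to 0.04, with members that went both ways. Of 16 core clock genes, 8 were higher and 8 lower, with a median of 0.00, and of 9 clock output genes the median was 0.04. Npas2 with 0.72 ± 0.27 and Rora with 0.20 ± 0.09 were the 2 higher at an unadjusted p under 0.05 (2.68% of all genes). Cry1 with -0.18 ± 0.08 was the 1 lower at that p (3.22% of all genes). Arntl, Per2, Nr1d1 and Dbp had 0.12 ± 0.17, -0.04 ± 0.20, 0.13 ± 0.09 and -0.11 ± 0.11. Of 23 immediate early genes, which respond within minutes to handling, 1 was lower at an unadjusted p under 0.05, with a median near 0. Of 13 heat shock genes, 10 were lower and 3 higher, 1 of each at that p, with a median of -0.12. Whether the time of day or the handling differed between the ages was not tested.

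**Figure D5:**
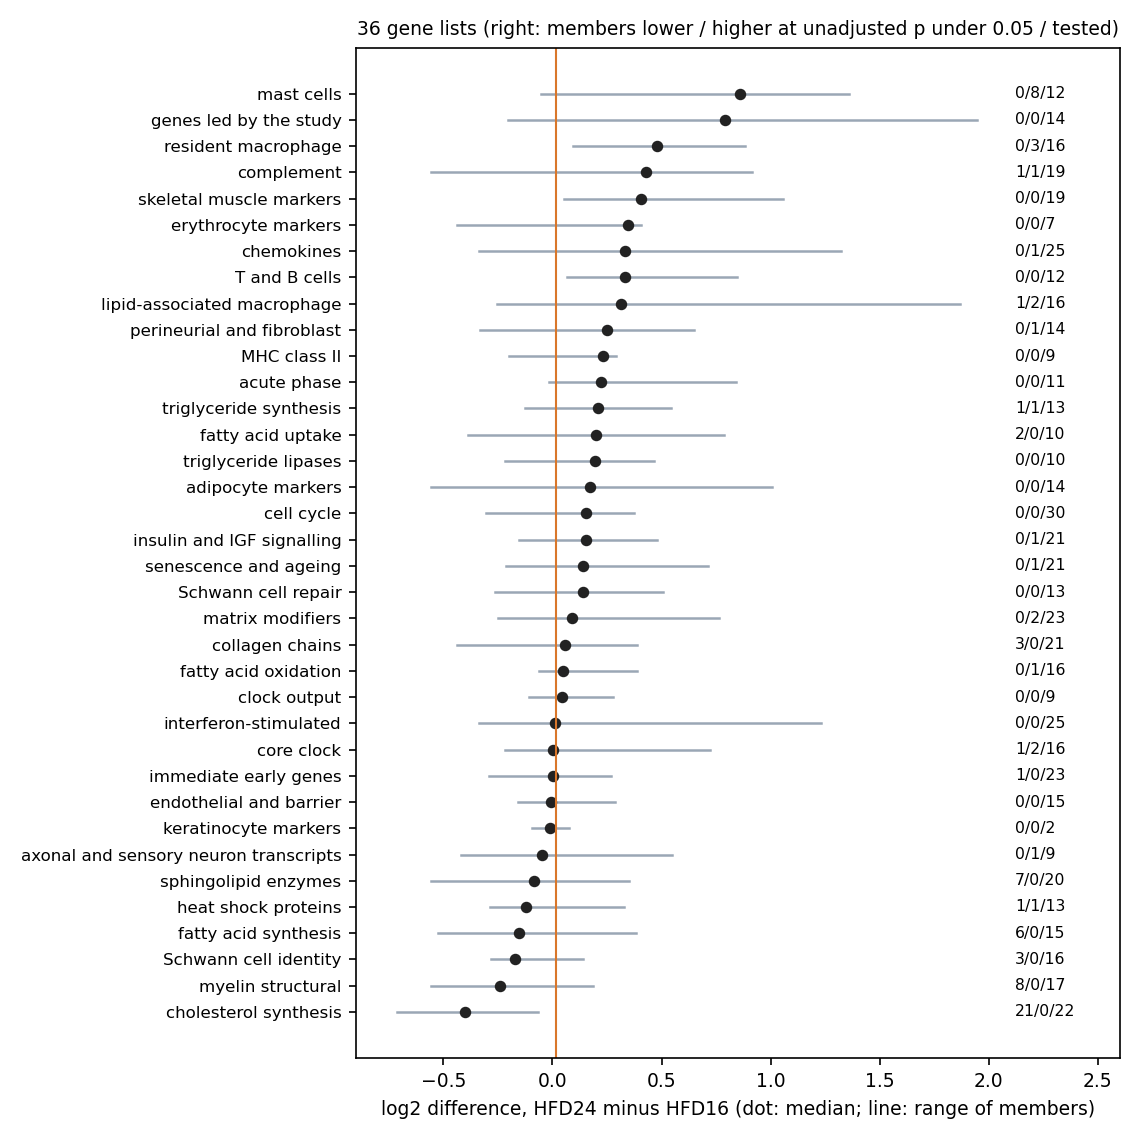
Median log2 difference between HFD24 and HFD16 for 36 gene lists (black dots), with the range of their members (grey lines) and the median of all genes tested (orange line); the figures at the right give members lower and higher at an unadjusted p under 0.05 and members tested. Cholesterol synthesis has the lowest median of the 36 lists (-0.40) and mast cells the highest (0.86).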

How the data were processed

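Whole sciatic nerve RNA was sequenced, and the authors deposited 1 table of log2 values per sample. The submitters' processing notes name HISAT2, featureCounts, DESeq2 and mm10. How the log2 values were normalised between samples is not given in the sources used here. The paper gives an approximate number of reads per sample, but the depth of each sample is unknown. Genes with a value above 22 in any of the 53 samples were left out. Genes were tested where the mean log2 value over the 14 samples was 3.32 (a linear value of 10) or more.

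HFD24 was compared with HFD16 with limma 3.58.1 in R 4.3.3 (empirical Bayes with a trend) and Benjamini-Hochberg adjustment over all genes tested. Calls needed an adjusted p under 0.05. Interactions were fitted with limma over both diets, and single genes were also given exact 2-sided permutation tests. The code was tested on simulated data. Tables and plots were made with Python 3.11.15, numpy 2.4.6, pandas 2.3.3 and matplotlib 3.10.9. Coordinates came from GENCODE M21 and upstream sequences from RefSeq (GRCm38.p6).

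The comparison, the groups of genes described and the gene lists were chosen with earlier results of these data known. Named genes were up to 15 called genes per direction by p (5, as values, where none were called), called list members, the 2 members with the highest mean of lists with at most 1 call, the clock genes and the genes that the study led with. Further members of the cholesterol, mast cell, myelin, macrophage, sphingolipid, fatty acid and other lists were named after their values were seen. Alternatives were other filters, variance priors and centring, all 8 groups in 1 fit, the library-number run, tissue scores as covariates and leaving out samples. The Schwann cell score as a covariate, the fit without 3 samples rich in muscle genes, and the motifs CCAAT and GGGCGG were chosen after seeing the data. A few genes of the lists stand in the counts and medians but are not reported here one by one.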

Additional observations from a re-analysis of the deposited data

Results flagged for a closer look

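Ms4a2, the beta chain of the IgE receptor, had 1 sample far from the others. In HFD24 its log2 value was 5.08 in replicate 5, and the nearest other sample was at 5.74. This was the 1 case among 80 groups of values examined, and chance alone sets apart about 1 in 20 groups. Without HFD24 replicate 5, Ms4a2 was the 1 gene called higher at 24 weeks (limma, adjusted p under 0.05).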

How the results depend on the processing

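The 12 genes kept a lower mean in all 27 alternative fits. Where samples were only left out, their lack of overlap makes this certain. The number past the threshold moved. It was 0 with the library-number run as a covariate, 22 with all 8 groups and the run, 1 without a trend in the variance prior, 6 with each sample centred on its median, 32 with the adipocyte score and 7 with the muscle score as a covariate, and 1 without the 3 samples with a muscle score above 10. Leaving out 1 sample gave 0 to 17. The number called higher was 2 without a filter on low values, 1 with all 8 groups, 1 with all 8 groups and the run and 3 with the adipocyte score, and 0 to 1 when 1 sample was left out. Without the filter, 1 gene was called in the interaction with SD and 2 in that with HFD-STZ, and leaving out 1 sample gave 0 to 0 and 0 to 1. The cause of these shifts was not tested.

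Differences near 0 changed sign. With the run as a covariate Insig1 was 0.0403, Gata2 0.0694 and Slc18a2 -0.00843. Slc18a2 was also -0.0318 with median centring, -0.00698 with the muscle score and -0.0650 without the 3 muscle-rich samples, and ran from -0.0349 (without HFD24 replicate 2) to 0.0481 (without HFD16 replicate 3) when 1 sample was left out, with a negative sign in 4 of these fits. Of the other values of single genes, 883 stayed on the same side of the threshold with the same sign, 166 lost it and 21 gained it. Only the 12 called genes could lose a call, so all 166 are theirs. For these 12, more values lost the call than kept it. Cyp2j13 kept it in 12 of 14 fits that left out 1 sample and in 11 of 13 others, and Stard4 in 0 of 14 and 4 of 13.

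No paired analysis was possible because the labels give the ages no shared replicate numbers. The run of library numbers, fitted as a covariate above, came nearest to a block. The depth of each sample is unknown, so small differences in genes with low values cannot be set against counting error.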

Other observations

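Immune genes beyond mast cells and macrophages are given beside all genes tested, of which 55.6% had a higher mean at 24 weeks and 2.68% were higher at an unadjusted p under 0.05. In these lists 0 passed the adjusted threshold (limma). Of 25 chemokine genes, 24 were higher with a median of 0.33, and 1, Cxcl16, had an unadjusted p under 0.05, with 0.33 ± 0.14. Of 16 T and B cell genes 12 were tested, and all 12 were higher, with a median of 0.33 and 0 at an unadjusted p under 0.05. Of 19 complement genes 16 were higher, with a median of 0.43. Of 10 genes of MHC class II 9 were tested, and 7 of these were higher, with a median of 0.23. The 25 interferon-stimulated genes were split, with 13 higher, 12 lower and a median of 0.01.

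Connective tissue and axonal genes are given likewise. Of 21 collagen genes, 13 were higher and 8 lower, with a median of 0.06. At an unadjusted p under 0.05, 3 were lower (3.22% of all genes) and 0 higher. The 3 were Col28a1 with -0.44 ± 0.11, Col11a1 with -0.26 ± 0.10 and Col14a1 with -0.21 ± 0.10. Of 14 perineurial and fibroblast genes 13 were higher, with 0.30 ± 0.16 for Dcn and 0.65 ± 0.25 for Lypd2. Of 23 genes of matrix modifiers, 15 were higher and 8 lower, with a median of 0.09. At an unadjusted p under 0.05, 2 were higher (2.68% of all genes) and 0 lower. The largest difference of this list was that of Timp1, an inhibitor of matrix proteases, with 0.77 ± 0.31. Of 18 axonal and sensory neuron genes 9 were tested, and of these 6 were lower and 3 higher, with a median of -0.05. Stmn2, a tubulin-binding protein of growing axons, had 0.55 ± 0.14 with an adjusted p of 0.345 (limma), while the neuronal hydrolase Uchl1 had -0.01 ± 0.13. Of 30 cell cycle genes 24 were higher, with a median of 0.15 and 0 at an unadjusted p under 0.05, and the 15 endothelial genes had a median of -0.01.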
